A study of Rattus norvegicus with 36 samples.

Results

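The RNA of the ventral striatum was compared between rats given cocaine on all 5 days of a protocol (Coc–Coc) and rats given cocaine on its last day alone (Sal–Coc). All groups were 8-week-old male Sprague-Dawley rats, injected in 3 daily sessions and killed a day after the last injection. Coc–Coc rats received 15 cocaine injections. Sal–Coc rats received a vehicle and then 3 cocaine injections, and their labels give 13 vehicle injections, so that the labels add up to 16 injections in that group against 15 in the others. Sal–Sal rats received 15 vehicle injections and served as the reference for where each difference lay. The labels call the vehicle serum, whereas the methods of the study describe saline. The contrast sets length of exposure against a matched last day, and total dose and the number of days on cocaine cannot be told apart. The Coc–Coc pools T1 to T3 and the Sal–Coc pools A1 to A3 were taken by group label, which gave 6 of the 9 pools of the series and 24 of its 36 count tables. The Sal–Sal pools are S1 to S3. Each pool was sequenced as 4 technical replicates, which were summed. The methods describe pools of tissue from several rats while the labels name 1 rat for each library, so p-values measure the spread between these pools. The phenotype label calls the Coc–Coc animals vulnerable where their description calls them tolerant, and it calls the Sal–Coc animals saline rats. The genes of the count tables carry Ensembl identifiers alone, and symbols were recovered only for genes on the published lists of differentially expressed genes (DEGs). Those lists were made from these same pools, mostly from comparisons with Sal–Sal. The 1473 genes with a symbol among the 15641 tested are therefore no random sample, and standard markers of striatal projection neurons could not be checked because none of them had a symbol.

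The ventral striatum, which holds the nucleus accumbens, receives dopamine from the midbrain and glutamate from cortex, hippocampus and amygdala onto GABAergic projection neurons. Cocaine blocks the dopamine transporter, and the dopamine that accumulates acts through cAMP, calcium and MAP kinase signalling on transcription factors such as CREB and AP-1. Repeated exposure is known for lasting changes in glutamate receptors, in neuropeptides and in chromatin in this tissue, and responses to a first exposure may be blunted on later ones.

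Among the genes described, several such as Dgkh (2.69-fold), Zbtb20 (2.57-fold), Rfx3 (1.82-fold) and Grm3 (1.63-fold), which encode a lipid kinase, a pair of transcription factors and a glutamate receptor, were higher in Coc–Coc than in Sal–Coc, with Sal–Sal near Coc–Coc. Others, such as Nts and Nefm, which encode neurotensin and a neurofilament chain, were 1.63-fold and 1.64-fold higher in Sal–Coc than in Coc–Coc, with Sal–Sal nearer to Sal–Coc. In a few, Fgf2 and Cacna1e among them, Sal–Sal stood apart between both cocaine groups, and in Lrp1b it stood above both. The genes named so far all come from the published Coc–Coc vs. Sal–Coc list, which was chosen on this contrast in these pools. They are examples, and where Sal–Sal lay over all genes tested is given below. No gene passed the test after adjustment. With edgeR's quasi-likelihood test and Benjamini-Hochberg adjustment, 0 of 15641 genes (0%) had an adjusted p under 0.05, and the smallest adjusted p was 0.0639, reached by Dgkh and Rfx3. An unadjusted p under 0.05 was found for 1453 genes (9.29%), 744 of them higher in Coc–Coc (4.76%) and 709 lower (4.53%). With DESeq2, 153 genes had an adjusted p under 0.05, and with limma-voom 0 did. The differences described in the following are therefore given as levels in each pool with their spread. They were small for most genes: the absolute log2 fold change had a median of 0.12, with a median standard error (SE) of 0.13. All 3 Coc–Coc pools lay above all 3 Sal–Coc pools for 1203 genes (7.69%) and below them for 1485 (9.49%), together 17.2% of the genes tested. Scaled by library size alone, without edgeR's TMM factors, the counts were 768 above and 2078 below, whereas with only the 6 pools compared they were 1376 and 1250, and without S1 1371 and 1299, so that the balance between directions depends on these choices. By library size alone, 416 of 1317 genes with an unadjusted p under 0.05 were higher. Of the 2688 genes whose pools did not overlap, 237 were higher and 282 lower by more than 0.5 on the log2 scale, and 45 and 61 by more than 1. For a gene whose pools do not overlap, the exact two-sided permutation test of 3 against 3 pools gives p = 0.1, the smallest it can give.

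**Figure D1:**
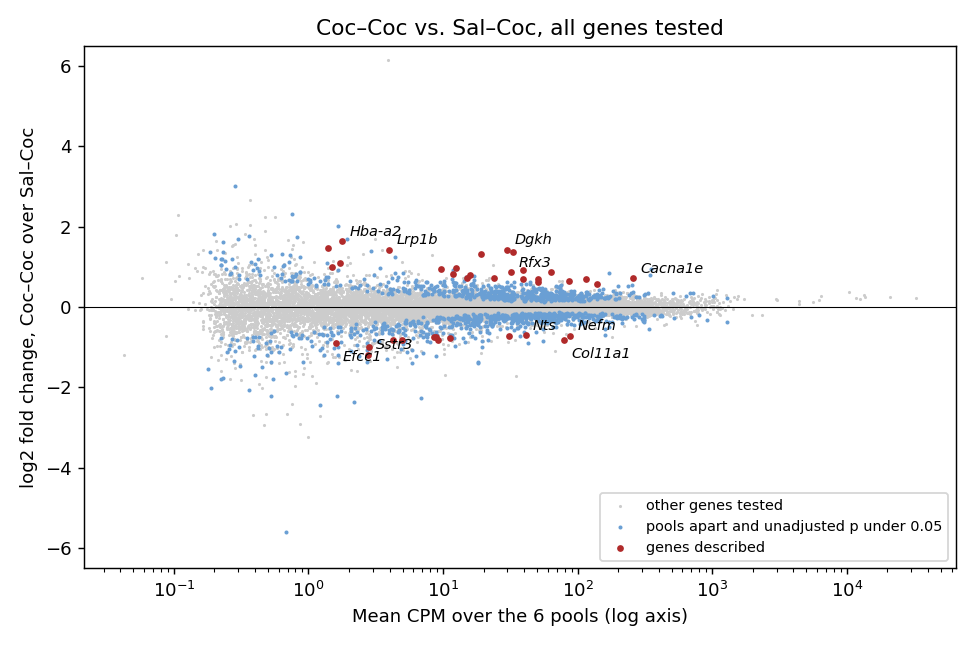
The log2 fold change of Coc–Coc over Sal–Coc (vertical axis) is plotted against the mean level in CPM (counts scaled to a common library size) over the 6 pools (horizontal log axis) for the 15641 genes tested. Blue points are the 1227 genes whose pools do not overlap and whose unadjusted p is under 0.05, and red points are the 37 genes described by the published list or as the largest named differences. The red points run from -1.19 for Sstr3 to 1.64 for Hba-a2, and the widest folds belong to genes under about 1 CPM.

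Where the Sal–Sal pools lay differed between genes. Among the 1203 genes higher in Coc–Coc, the range of the Sal–Sal pools overlapped that of Coc–Coc but not of Sal–Coc in 412 (34.2%), overlapped Sal–Coc only in 262 (21.8%), overlapped both in 373 (31.0%) and stood apart from both in 156 (13.0%). Among the 1485 genes lower in Coc–Coc, the corresponding numbers were 324 (21.8%), 358 (24.1%), 330 (22.2%) and 473 (31.9%). Over all genes tested the shares were 13.6%, 14.2%, 49.7% and 22.5%. By group means, Sal–Sal lay between both cocaine groups for 480 of the higher and 487 of the lower genes. Coc–Coc lay between Sal–Sal and Sal–Coc for 460 of the higher and 651 of the lower genes, and Sal–Coc lay in between for the remaining 263 and 347. Genes with a symbol were distributed otherwise. Of the 1473, 178 were higher (12.1%) and 298 lower (20.2%) with pools that did not overlap, 300 had an unadjusted p under 0.05 (20.4%), and Coc–Coc lay between both other groups for 120 of the 178 and 273 of the 298. Most of these genes had their symbol because they were published as DEGs against Sal–Sal, which sets where that group lies.

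**Figure D2:**
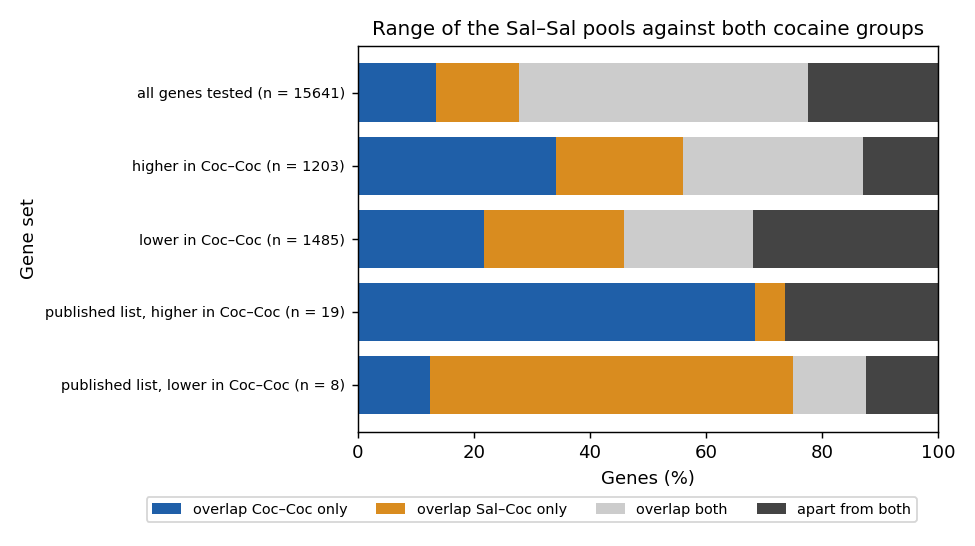
Bars give the percentage of genes (horizontal axis) whose Sal–Sal pools overlap the range of the Coc–Coc pools alone, of the Sal–Coc pools alone, of both or of neither. Each row is a set of genes: all 15641 tested, the 1203 higher and 1485 lower in Coc–Coc, and the genes of the published list. Of the 19 higher published genes 13 have Sal–Sal pools that overlap Coc–Coc alone, and of the 8 lower ones 5 have Sal–Sal pools that overlap Sal–Coc alone.

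The published Coc–Coc vs. Sal–Coc list for the ventral striatum was chosen on this contrast in these pools, so its values are a description. An identifier was found for 27 of its genes. The pools did not overlap for any of them, 19 higher and 8 lower in Coc–Coc, with adjusted p between 0.0639 and 0.348. The 2 directions differed in their relation to Sal–Sal. For the 19 higher genes the Sal–Coc mean was below Sal–Sal in every case, and 17 of the 19 were called between these groups (16.4% of all genes tested), with a median log2 difference of -0.88 for Sal–Coc. Between Coc–Coc and Sal–Sal, where 10.9% of all genes were called, 0 of these 19 were, and the median for Coc–Coc was -0.08. Of the 8 lower genes, 0 were called for Sal–Coc against Sal–Sal, with a median of 0.22, whereas 5 were called for Coc–Coc against it, with a median of -0.59. These comparisons share pools, and the values are set side by side only. With the largest differences among the other named genes added, 24 genes were higher and 13 lower. Below, genes of the published list are at times set beside relatives named from comparisons with Sal–Sal. That choice largely fixes which of them stands apart.

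**Figure D3:**
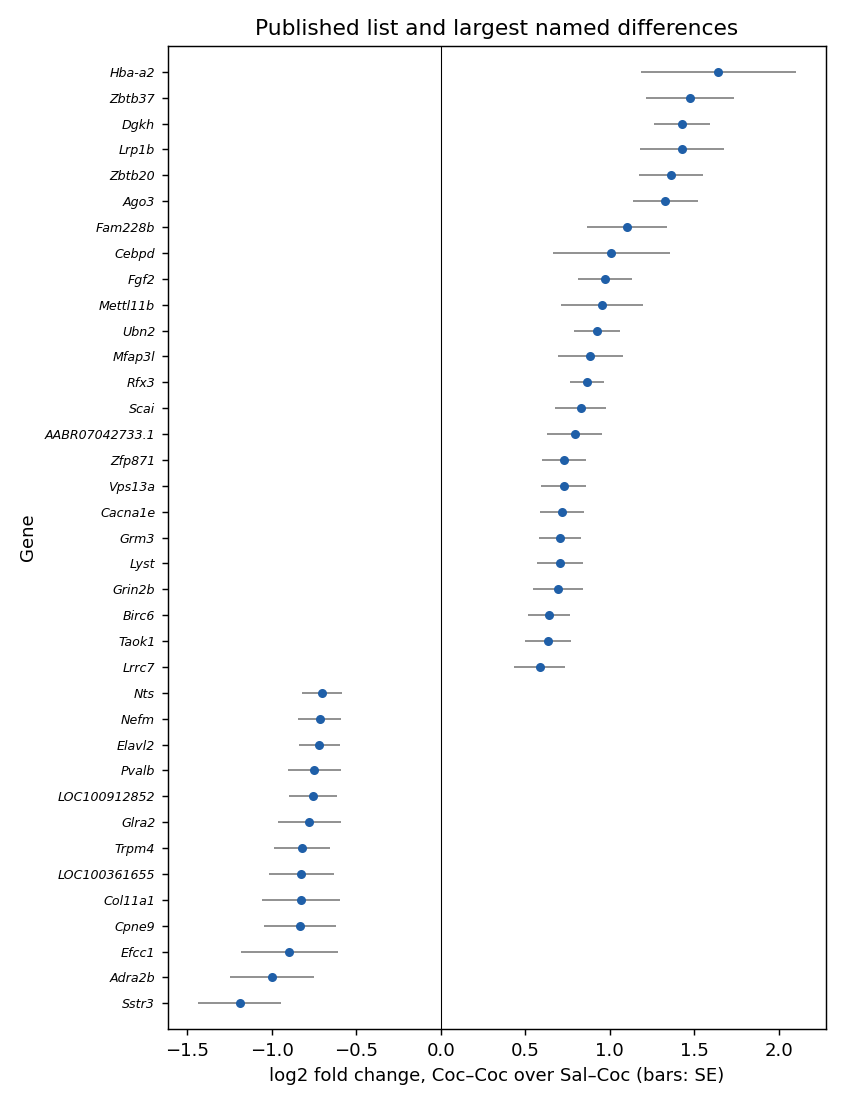
The log2 fold change of Coc–Coc over Sal–Coc (horizontal axis, points) and its SE (bars) are plotted for the 37 genes of the published list and of the largest named differences (vertical axis). The 24 higher genes run from 0.58 for Lrrc7 to 1.64 for Hba-a2, and the 13 lower genes from -1.19 for Sstr3 to -0.70 for Nts.

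Among signalling enzymes, Dgkh (ENSRNOG00000010065) stood out by its small adjusted p. It encodes diacylglycerol kinase eta, which converts the second messenger diacylglycerol to phosphatidic acid and so limits protein kinase C signalling. Its level was 39.9, 52.5 and 38.5 CPM in T1 to T3, 13.1, 15.4 and 20.2 CPM in A1 to A3 and 43.8, 45.1 and 41.3 CPM in S1 to S3. The Coc–Coc and Sal–Sal pools overlapped, and every Sal–Coc pool was under both. The fold of Coc–Coc over Sal–Coc was 2.69 (log2 fold change 1.43, SE 0.16, adjusted p = 0.0639), against a log2 fold change of -1.42 for Sal–Coc over Sal–Sal and 0.01 for Coc–Coc over Sal–Sal. Of the 31 symbols in its list, which also held phospholipases C and protein kinases C, 5 were joined. Dgkh, which comes from the published list chosen on this contrast, alone had pools that did not overlap. The log2 fold changes of Dgka, Dgkz, Plcb2 and Plcg1 lay between -0.16 and -0.06. In the MAP kinase cascade, where 4 of 39 symbols could be joined, 3 of the 4 had higher Coc–Coc pools (7.69% of all genes tested, 12.1% of those with a symbol). Of the 3, Taok1 comes from the published list chosen on this contrast. Taok1, a kinase upstream of the stress-activated MAP kinases, was at 56.4, 70.2 and 59.7 CPM in T1 to T3 and 41.4, 32.1 and 46.5 in A1 to A3, with Sal–Sal at 68.0, 60.2 and 70.2. Map3k2, which feeds the JNK and ERK5 branches, had a log2 fold change of 0.62 (SE 0.16), and in both genes the Coc–Coc pools overlapped Sal–Sal. Dusp1, a phosphatase that switches MAP kinases off, was ordered differently. It was at 63.6, 53.8 and 46.9 CPM in T1 to T3, above A1 to A3 at 36.8, 43.6 and 36.4 and S1 to S3 at 39.1, 33.5 and 41.8, and here the last 2 groups overlapped. Its log2 fold change was 0.49 (SE 0.13, adjusted p = 0.360) over Sal–Coc and 0.52 over Sal–Sal (adjusted p = 0.0339). The fourth member, Dusp8, had a log2 fold change of 0.09. Creb1, which encodes the transcription factor CREB, was at 7.54, 8.96 and 7.02 CPM in T1 to T3 and 5.16, 5.30 and 5.87 CPM in A1 to A3 (log2 fold change 0.53, SE 0.13), with Sal–Sal at 8.00, 8.21 and 9.499 CPM. Ddc, the dopamine-forming decarboxylase and the only other named gene of dopamine and cAMP signalling, had lower Coc–Coc pools, with a log2 fold change of -0.22 and an unadjusted p of 0.346.

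The glutamate receptors with a symbol were not of 1 pattern. Grm3, a Gi-coupled receptor of astrocytes and presynaptic terminals, was at 129, 163 and 137 CPM in T1 to T3 and at 84.7, 89.0 and 88.9 in A1 to A3. The Sal–Coc pools were close to each other and under all Sal–Sal pools, which read 169.9, 127 and 167 CPM, and the log2 fold change between the cocaine groups was 0.71 (SE 0.12). Grm5, the Gq-coupled receptor next to the postsynaptic density, was at 211, 269 and 229 CPM in T1 to T3, 140.2, 162 and 192 CPM in A1 to A3 and 238, 239 and 248 CPM in S1 to S3, again with Sal–Coc lowest. Both named metabotropic receptors, of 8 listed, had higher Coc–Coc pools, as did 2 of the 4 named ionotropic subunits, of 18 listed. The share was 7.69% over all genes tested and 12.1% over those with a symbol. Grm3 and Grin2b come from the published list chosen on this contrast, as does Lrrc7 below. Grin2b, the GluN2B subunit of NMDA receptors, was at 57.9, 73.2 and 56.2 CPM in T1 to T3, 34.2, 35.8 and 45.8 in A1 to A3 and 61.9, 54.0 and 70.3 in S1 to S3. Its fold over Sal–Coc was 1.62 (log2 fold change 0.69, SE 0.15), and Coc–Coc and Sal–Sal overlapped. Gria1, the GluA1 subunit of AMPA receptors, was at 499, 609.8 and 601 CPM in T1 to T3, 417, 431 and 494 in A1 to A3 and 388, 427 and 436 in S1 to S3. For Gria1 it was Coc–Coc that lay apart, by 0.35 over Sal–Coc (SE 0.11, adjusted p = 0.427) and 0.45 over Sal–Sal (adjusted p = 0.0315). Grin1 and Grik5 had log2 fold changes of -0.12 and -0.22 with overlapping pools. Lrrc7, which encodes the postsynaptic scaffold densin-180, was at 168, 186 and 148 CPM in T1 to T3 and 85.9, 113 and 136 CPM in A1 to A3 (log2 fold change 0.58, SE 0.15). The glial glutamate transporter Slc1a2 was at 521, 427 and 370.0 CPM in T1 to T3, 292, 202 and 260.4 in A1 to A3 and 529.8, 439 and 394 in S1 to S3. Slc1a2 is also an astrocyte marker, and the other named one, S100b, had a log2 fold change of 0.29 (SE 0.13) in the same direction. The microglial markers C1qb and C1qc had log2 fold changes of 0.27 and 0.25. T1 was the highest Coc–Coc pool for S100b, C1qb and C1qc, and without it their values were 0.16, 0.15 and 0.05. In whole tissue, more cells of a type and more RNA per cell cannot be told apart, and the part of glial cells in these values was not tested.

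Ion channels and inhibitory receptors held differences both ways. Cacna1e, the pore of R-type calcium channels, was at 275, 358 and 327 CPM in T1 to T3, 193, 167 and 224 in A1 to A3 and 231, 256 and 270.3 in S1 to S3. The 3 groups did not overlap, with Sal–Sal between the cocaine groups, and the log2 fold change of Coc–Coc over Sal–Coc was 0.72 (SE 0.13, adjusted p = 0.217). Against Sal–Sal the values were -0.38 for Sal–Coc (adjusted p = 0.0744) and 0.34 for Coc–Coc (adjusted p = 0.113), so neither cocaine group passed the test by itself. Cacna1e comes from the published list chosen on this contrast. The other named calcium channel pores, Cacna1a, Cacna1b and Cacna1d, had log2 fold changes of -0.14, -0.11 and 0.06, all with overlapping pools. Kcnh7, an eag-related potassium channel, was higher in Coc–Coc by 0.47 (SE 0.14) and lay under Sal–Sal in both cocaine groups. Gabrb1, a beta subunit of GABA-A receptors, was at 37.7, 42.7 and 34.1 CPM in T1 to T3, 27.2, 24.7 and 25.9 in A1 to A3 and 47.2, 44.2 and 61.5 in S1 to S3, with Coc–Coc in between. Its relative Gabrg3 had a log2 fold change of 0.42, with an unadjusted p of 0.0201 and overlapping pools. Glra2, the alpha2 subunit of glycine receptors, differed in the opposite direction and was at 7.38, 6.65 and 10.787 CPM in T1 to T3, 16.1, 13.3 and 13.1 in A1 to A3 and 10.2, 10.2 and 12.8 in S1 to S3 (log2 fold change -0.78, SE 0.19).

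**Figure D4:**
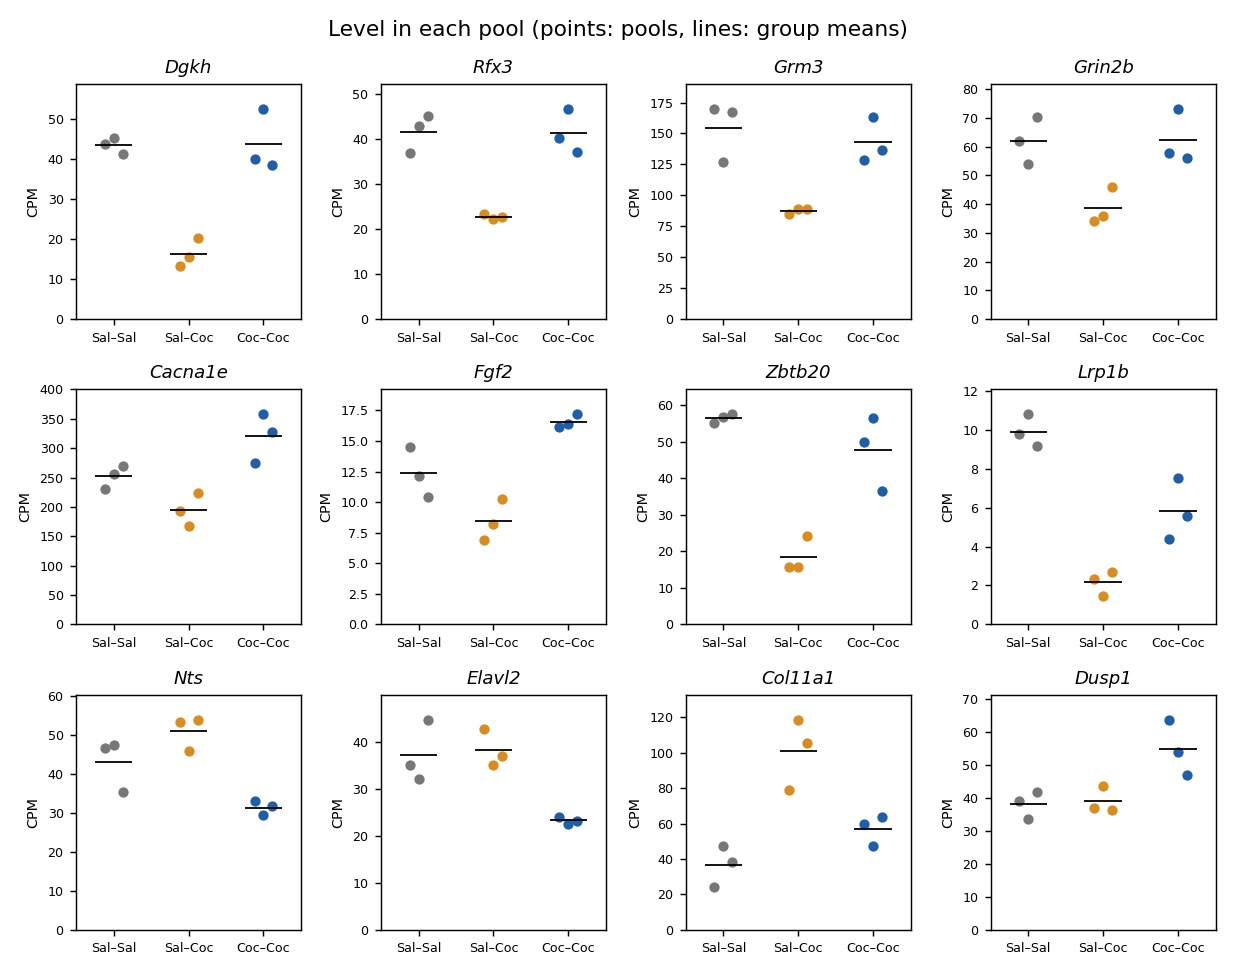
Each panel plots 1 gene, with the level in CPM (vertical axis, from 0) in the 3 pools of each group (points) and the group mean (line). In Dgkh, Rfx3, Grm3, Grin2b, Zbtb20 and Lrp1b the Sal–Coc pools are the lowest, in Cacna1e and Fgf2 the Sal–Sal pools lie between both cocaine groups, in Nts and Elavl2 the Coc–Coc pools are the lowest, in Col11a1 the Sal–Coc pools are the highest, and in Dusp1 the Coc–Coc pools are.

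Fgf2, the growth factor FGF-2 that acts on neurons and astrocytes, was at 16.1, 16.4 and 17.2 CPM in T1 to T3, 6.89, 8.23 and 10.2 in A1 to A3 and 14.5, 12.1 and 10.5 in S1 to S3. The groups did not overlap, S3 and A3 by a narrow margin, and Sal–Sal lay between the cocaine groups. The mean was 16.6 ± 0.551 CPM in Coc–Coc and 8.46 ± 1.69 CPM in Sal–Coc (SD, n = 3), a fold of 1.96 (log2 fold change 0.97, SE 0.16, adjusted p = 0.217). Lrp1b, a large endocytic receptor of the LDL receptor family, was at 4.37, 7.53 and 5.57 CPM in T1 to T3, 2.32, 1.46 and 2.71 in A1 to A3 and 9.77, 10.801 and 9.17 in S1 to S3. Coc–Coc lay between the other groups without overlap, 2.69-fold over Sal–Coc (log2 fold change 1.43, SE 0.25) and with -0.76 against Sal–Sal (adjusted p = 0.0652). Fgf2 and Lrp1b both come from the published list chosen on this contrast. Apoe, a ligand of the receptor family, and Lrp8, a relative of Lrp1b, had log2 fold changes of 0.29 and -0.19 with overlapping pools.

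Proteins with VPS13 or BEACH domains, which are very large and serve lipid transfer and vesicle traffic, had 5 of 12 list symbols joined. Of these 5, 4 had higher Coc–Coc pools (7.69% of all genes, 12.1% of those with a symbol), with a list median of 0.71, and 2 of the 4, Vps13a and Lyst, come from the list chosen on this contrast. Vps13a, the lipid transfer protein lost in chorea-acanthocytosis, was at 26.1, 37.1 and 26.8 CPM in T1 to T3, 18.4, 17.0 and 18.9 in A1 to A3 and 40.9, 37.3 and 43.7 in S1 to S3. Lyst, a regulator of lysosome-related organelles, was at 40.4, 55.6 and 49.0 CPM in T1 to T3, 30.1, 25.3 and 33.6 in A1 to A3 and 57.4, 60.8 and 51.7 in S1 to S3. In both the Sal–Coc pools were the lowest, and Coc–Coc overlapped Sal–Sal in Lyst but not in Vps13a. Vps13b and Nbeal1 had log2 fold changes of 0.73 (SE 0.15) and 0.65 (SE 0.18), and Nbeal2 had -0.24 with overlapping pools. Birc6, a giant ubiquitin-conjugating enzyme that restrains apoptosis, was at 92.4, 122 and 102 CPM in T1 to T3, 76.9, 57.9 and 68.3 in A1 to A3 and 118, 129 and 137 in S1 to S3. Birc6 also comes from the list chosen on this contrast.

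Among transcription factors, Rfx3 (ENSRNOG00000014486), a factor of ciliary genes, had Sal–Coc values close to each other, 23.4, 22.2 and 22.6 CPM in A1 to A3, against 40.3, 46.8 and 37.3 in T1 to T3 and 37.0, 42.9 and 45.2 in S1 to S3. Its log2 fold change was 0.87 (SE 0.10, adjusted p = 0.0639) over Sal–Coc and -0.01 over Sal–Sal. Rfx3 comes from the list chosen on this contrast. Rfx1 had -0.13 over Sal–Coc with lower Coc–Coc pools and an unadjusted p of 0.146. Among BTB zinc finger proteins, with 5 of 41 symbols joined, 3 of the 5 had higher Coc–Coc pools (7.69% of all genes tested, 12.1% of those with a symbol). Of these, Zbtb20 and Zbtb37 come from the list chosen on this contrast. Zbtb20, a repressor with roles in hippocampal development and in astrocytes, was at 50.0, 56.5 and 36.4 CPM in T1 to T3, 15.7, 15.8 and 24.2 in A1 to A3 and 55.1, 56.7 and 57.5 in S1 to S3, a fold of 2.57 (log2 fold change 1.36, SE 0.19). Zbtb37, at 2.07, 2.59 and 1.47 CPM in T1 to T3 and 0.680, 0.586 and 0.942 in A1 to A3, had a log2 fold change of 1.47 (SE 0.26), and its Sal–Sal pools were above both at 3.39, 3.39 and 3.40 CPM. Zbtb41 had 0.27, and Zbtb17 and Zbtb40 had -0.13 and -0.11 with overlapping pools. Zfp871, a zinc finger protein, and Scai, a cofactor that represses serum response factor targets, had log2 fold changes of 0.73 (SE 0.13) and 0.83 (SE 0.15). Both come from the list chosen on this contrast. Of 67 chromatin regulators listed 9 were named, and Ubn2 among them comes from the list chosen on this contrast. Of the 9, 4 were higher with unadjusted p under 0.05 (4.76% of all genes tested). Among genes with a symbol, 20.4% had such a p in either direction. The median of the 9 was 0.04, and it was -0.04 without A1 and 0.12 without A3. Ubn2, a partner of the HIRA histone chaperone, was at 49.2, 59.4 and 45.1 CPM in T1 to T3, 26.0, 26.5 and 28.4 in A1 to A3 and 37.3, 46.6 and 53.0 in S1 to S3. Hira itself had a log2 fold change of 0.04 against 0.93 (SE 0.14) for Ubn2. Tet1, which oxidizes methylcytosine, was at 6.14, 7.97 and 5.33 CPM in T1 to T3 and 4.10, 2.61 and 4.02 in A1 to A3 (log2 fold change 0.86, SE 0.23). Kdm7a, a histone demethylase, had 0.53 (SE 0.15). Dnmt3a, Kmt2c and Hdac7 had -0.08, -0.05 and -0.37 with overlapping pools, and Kmt2b had -0.17 with lower Coc–Coc pools. Ago3, an argonaute protein that binds microRNAs, was at 26.0, 33.7 and 21.8 CPM in T1 to T3, 9.85, 10.3 and 12.3 in A1 to A3 and 24.8, 25.3 and 35.7 in S1 to S3, a fold of 2.51. The miRNA silencing partner Tnrc6c had a log2 fold change of -0.08, against 1.33 (SE 0.19) for Ago3, which comes from the list chosen on this contrast.

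The remaining higher genes were less alike in their spread. Mfap3l, Mettl11b and Fam228b had log2 fold changes of 0.88 (SE 0.19), 0.95 (SE 0.24) and 1.10 (SE 0.24), with Sal–Coc lowest on average. AABR07042733.1, which the published list describes as the neuronal adhesion protein cadherin 8, was at 18.5, 24.3 and 17.95 CPM in T1 to T3, 9.26, 12.6 and 13.2 in A1 to A3 and 12.7, 15.1 and 15.3 in S1 to S3, so that Sal–Sal overlapped Sal–Coc alone. Its log2 fold change was 0.79 (SE 0.16). Cebpd, a C/EBP factor of the stress and inflammatory response, rested on 1 pool: it was at 3.25, 1.46 and 1.30 CPM in T1 to T3, 0.938, 1.04 and 0.997 in A1 to A3 and 4.28, 5.91 and 4.07 in S1 to S3, and without T1 its log2 fold change was 0.49 against 1.01 (SE 0.35). Hba-a2, the alpha globin of erythrocytes, had the largest log2 fold change of the named genes of at least 1 CPM whose pools did not overlap, 1.64 (SE 0.46), at 3.00, 1.53 and 3.55 CPM in T1 to T3, 0.539, 1.25 and 0.803 in A1 to A3 and 0.974, 0.297 and 0.619 in S1 to S3. It has near-identical copies in the rat genome, and multiply mapped reads were left out, so its counts hold uniquely mapped reads alone. Hba-a2 marks blood rather than striatal cells. Blood left in the vessels was not measured apart, and its part in this value was not tested. Cdh1, the epithelial cadherin, was too low for a fold: it had 30, 18 and 13 counts in T1 to T3, 3, 4 and 0 in A1 to A3 and 16, 32 and 12 in S1 to S3. Pcdh8, a protocadherin, had a log2 fold change of -0.13.

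The 13 lower genes are given in 2 sets, which follow how their symbols were obtained. In the first, the 8 genes of the published Coc–Coc vs. Sal–Coc list, Sal–Sal lay between both cocaine groups, mostly near Sal–Coc. None was called in Sal–Coc vs. Sal–Sal, where 16.4% of all genes tested were. That count is not free of choice, since the 8 genes were chosen on the contrast of Coc–Coc with the same Sal–Coc pools. Both named members of the neuropeptide list belong here. Nts (ENSRNOG00000004179), which encodes neurotensin, a peptide that modulates dopamine signalling in the accumbens, was at 33.0, 29.4 and 31.7 CPM in T1 to T3, 53.2, 45.8 and 53.9 in A1 to A3 and 46.5, 47.4 and 35.3 in S1 to S3. Every Coc–Coc pool lay under every pool of the other groups. The mean was 31.4 ± 1.85 CPM in Coc–Coc against 51.0 ± 4.46 in Sal–Coc and 43.1 ± 6.79 in Sal–Sal (SD, n = 3), with log2 fold changes of -0.70 against Sal–Coc (SE 0.12, adjusted p = 0.217) and -0.46 against Sal–Sal (adjusted p = 0.0387). Sstr3, a Gi-coupled somatostatin receptor found on neuronal cilia, was at 2.12, 1.51 and 1.47 CPM in T1 to T3, 5.06, 2.96 and 3.57 in A1 to A3 and 2.74, 3.71 and 3.48 in S1 to S3. Its log2 fold change was the lowest of the 37 genes plotted with their SE, -1.19 (SE 0.25), and -0.97 against Sal–Sal (adjusted p = 0.0383). Adra2b, a Gi-coupled adrenoceptor, was at 1.72, 1.37 and 2.58 CPM in T1 to T3, 3.24, 4.34 and 3.74 in A1 to A3 and 3.36, 2.45 and 2.98 in S1 to S3, where the Sal–Sal pools overlapped both other groups. Adrb1 had a log2 fold change of 0.50 with overlapping pools.

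The promoter of Nts is shown because transcription of this gene is known to answer to the AP-1 and CRE elements upstream of its start, the elements that cocaine-activated signalling reaches, and that of Ubn2 because it alone among the published genes with 1 listed start held the full CRE. The sequences are the 250 bases before the start in RefSeq (GRCr8; Nts on the minus strand, chr7:39460889-39461138, and Ubn2 on the plus strand, chr4:68133011-68133260), 5′ to 3′, with matches in capitals. Motifs were TGACGTCA (CRE), TGANTCA (AP-1) and CGTCA (the CRE core, contained in the full CRE), on both strands.
Nts: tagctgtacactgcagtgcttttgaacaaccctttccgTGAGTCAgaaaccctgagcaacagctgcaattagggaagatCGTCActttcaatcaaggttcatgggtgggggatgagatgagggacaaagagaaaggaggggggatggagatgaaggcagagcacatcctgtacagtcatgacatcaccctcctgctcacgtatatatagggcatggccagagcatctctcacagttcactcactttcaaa
Ubn2: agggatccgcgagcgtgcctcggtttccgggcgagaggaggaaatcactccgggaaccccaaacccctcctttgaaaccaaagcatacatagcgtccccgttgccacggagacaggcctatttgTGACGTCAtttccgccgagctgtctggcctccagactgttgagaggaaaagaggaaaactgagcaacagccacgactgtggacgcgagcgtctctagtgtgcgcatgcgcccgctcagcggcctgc
The Nts window held an AP-1 match from 212 to 206 bases upstream and a CRE core from 171 to 167, and the Ubn2 window a full CRE from 126 to 119. Only exact matches were marked, and a near match to the full CRE, tgacatca, stands in small letters in the Nts window. Of all 33469 promoter windows in that table, 1.59% held the full CRE, 6.34% the AP-1 motif and 18.2% the CRE core. A full CRE was found in 1 of 13 higher and 0 of 6 lower published genes with 1 listed start, and an AP-1 match in 1 of 13 and 1 of 6. These matches describe letters and not binding, and no protein was measured on these promoters here.

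Glra2 also belongs to that first set, as do the next genes except Ina. Nefm, the medium neurofilament chain of large axons, was at 73.3, 51.8 and 74.8 CPM in T1 to T3, 109, 105 and 115 in A1 to A3 and 91.7, 101 and 98.4 in S1 to S3. No pools overlapped, and the log2 fold change was -0.72 against Sal–Coc (SE 0.13, adjusted p = 0.217) and -0.54 against Sal–Sal (adjusted p = 0.0295). Ina, alpha-internexin, the other named neuronal intermediate filament, was at 96.8, 96.3 and 105 CPM in T1 to T3, 148, 117 and 119 in A1 to A3 and 133, 123 and 148 in S1 to S3, with -0.36 (SE 0.11) against Sal–Coc. Elavl2, an RNA-binding protein of neurons, was at 24.0, 22.6 and 23.2 CPM in T1 to T3, 42.7, 35.1 and 36.9 in A1 to A3 and 35.03, 32.0 and 44.6 in S1 to S3. Its Coc–Coc pools were close to each other and all under the other groups (log2 fold change -0.72, SE 0.12, adjusted p = 0.217). Pvalb, the calcium buffer that marks fast-spiking interneurons, was at 7.24, 6.23 and 6.52 CPM in T1 to T3, 10.2, 11.3 and 12.1 in A1 to A3 and 9.18, 7.91 and 11.95 in S1 to S3 (log2 fold change -0.75, SE 0.16). Pvalb was the only named member of the interneuron list, so fewer such cells and less Pvalb per cell cannot be told apart. LOC100912852, annotated as like the scaffold Dlg5, was at 5.90, 7.25 and 6.03 CPM in T1 to T3 and 11.3, 12.1 and 8.97 in A1 to A3 (log2 fold change -0.76, SE 0.14), with Sal–Sal at 10.3, 9.27 and 10.784.

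In the second set, of 5 genes with symbols from the published Sal–Coc vs. Sal–Sal list, Sal–Coc was the highest group and Coc–Coc lay between it and Sal–Sal by mean. All 5 were called for Sal–Coc against Sal–Sal, as were 90.7% of all genes with a symbol, and 0 for Coc–Coc against it, where 62.1% were. The choice of genes with a symbol largely fixes the first of these counts. The second is not free of choice either, since these genes were picked for Coc–Coc levels far under Sal–Coc. Col11a1, a fibrillar collagen chain of the extracellular matrix, was at 59.7, 47.5 and 63.5 CPM in T1 to T3, 78.9, 119 and 106 in A1 to A3 and 24.0, 47.2 and 38.1 in S1 to S3. The log2 fold changes were -0.83 for Coc–Coc over Sal–Coc (SE 0.23), 1.47 for Sal–Coc over Sal–Sal (adjusted p = 0.00562) and 0.64 for Coc–Coc over Sal–Sal (adjusted p = 0.102). Trpm4, a cation channel opened by calcium, was at 3.43, 2.94 and 2.82 CPM in T1 to T3, 5.44, 4.79 and 6.01 in A1 to A3 and 2.30, 2.45 and 3.00 in S1 to S3. Its Coc–Coc pools overlapped Sal–Sal, as did those of Cpne9, a calcium-dependent membrane-binding copine, Efcc1 and LOC100361655. Their log2 fold changes against Sal–Coc were -0.82 (SE 0.17), -0.83 (SE 0.21), -0.90 (SE 0.29) and -0.82 (SE 0.19).

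Further lists held smaller differences or few joined members. Of 80 cytosolic ribosomal proteins listed, 32 were named. All 32 had positive log2 fold changes, from 0.10 to 0.30 with a median of 0.21. The pools were apart for 2 of them, Rps2 and Rplp0, both higher in Coc–Coc (7.69% of all genes tested, 12.1% of those with a symbol). An unadjusted p under 0.05 was found for 4 of the 32 (9.29% of all genes tested, 20.4% of those with a symbol). Against Sal–Sal, all 32 were called lower for Sal–Coc, with a median of -0.48, and 1 was called for Coc–Coc, with a median of -0.29. Of all genes with a symbol 90.7% were called in the former comparison, which the origin of the symbols largely fixes, and 62.1% in the latter. The same Sal–Coc pools enter the contrast with Coc–Coc, so genes low in them against Sal–Sal lean toward positive values there. The shared sign is therefore no separate result. Ribosomal protein genes have many pseudogenes, so their counts are uncertain. Rps2 was at 186, 157 and 145 CPM in T1 to T3, 122, 142 and 132 in A1 to A3 and 226, 215 and 172 in S1 to S3. Of 4 named clock genes, Ciart, a repressor of the clock, was at 14.3, 13.99 and 14.9 CPM in T1 to T3, 6.73, 9.53 and 11.99 in A1 to A3 and 6.99, 8.40 and 7.36 in S1 to S3. Here Sal–Sal overlapped Sal–Coc, whereas for Bhlhe41, another clock repressor, both cocaine groups lay under Sal–Sal, with 20.5, 21.7 and 25.002 CPM in T1 to T3, 16.7, 18.3 and 17.3 in A1 to A3 and 29.3, 30.6 and 27.8 in S1 to S3. Per2 and Per3 had log2 fold changes of 0.23 and 0.21 with overlapping pools. The immediate early genes Jun, Jund and Egr4 had 0.34, 0.16 and 0.39, all with overlapping pools a day after the last injection. For the vascular genes Flt1, Pdgfrb and Vwf the values were -0.14, 0.02 and -0.07. The median log2 fold change over all genes tested was -0.01.

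**Figure D5:**
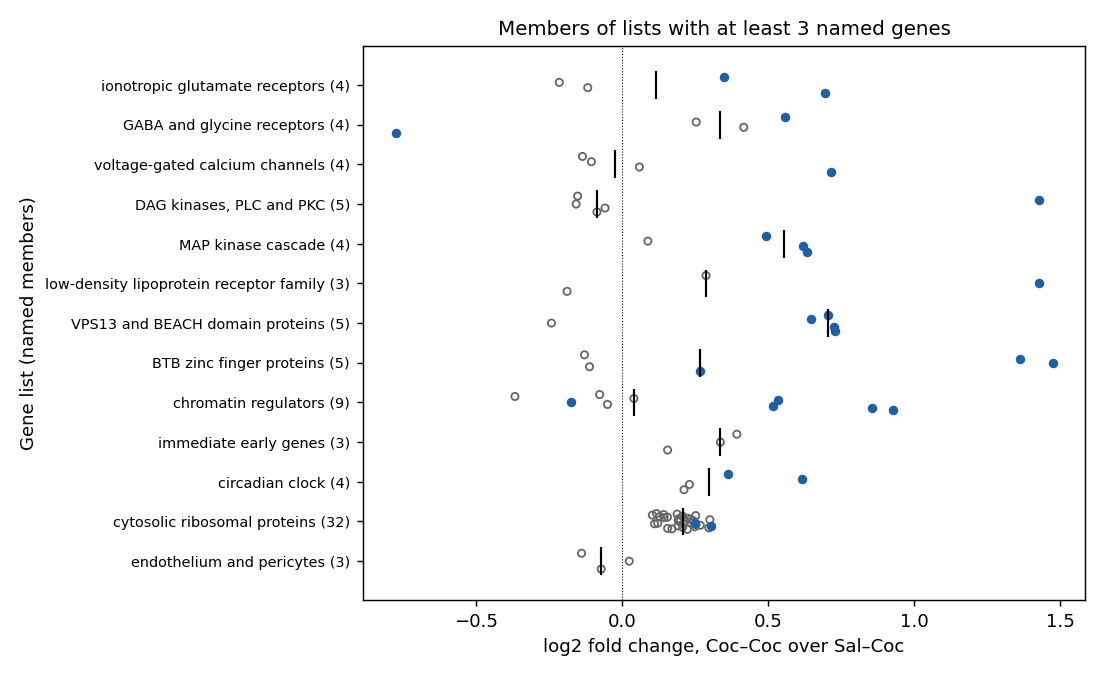
Log2 fold changes of Coc–Coc over Sal–Coc (horizontal axis) are plotted for the named members of each list with at least 3 of them (vertical axis, number of members in parentheses). Filled points are members whose pools do not overlap, open points the others, and black lines list medians. Filled points stand apart from the other named members in the calcium channel, diacylglycerol kinase and LDL receptor lists. They are Cacna1e, Dgkh and Lrp1b, from the published list chosen on this contrast, which largely fixes that they stand apart. Of the symbols in these lists 4 of 18, 5 of 31 and 3 of 17 were joined. The 32 ribosomal proteins lie between 0.10 and 0.30.

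Depth was alike, with between 36372166 and 42449841 counts in each of the 9 pools. Pool A1 of Sal–Coc and pool S3 of Sal–Sal were the highest of their groups for many lower genes, and the part of these libraries was not tested beyond the values without them. Of the 621 genes with lower Coc–Coc pools and an unadjusted p under 0.05, pool A1 was the highest Sal–Coc pool in 385 and pool S3 the highest Sal–Sal pool in 390, both at once in 299. Within Coc–Coc, pool T3 was the highest in 333 of them. These ranks were not counted over all genes tested, so they are not shown to be particular to the lower genes. Across the genes tested, which are not independent, the deviations of A1 and S3 from their group means had a correlation of 0.603. Of genes without a symbol that met the same filter (a mean of 1 CPM or more, pools apart, unadjusted p under 0.05), the one with the lowest log2 fold change, ENSRNOG00000009197, was at 0.322, 0.394 and 0.434 CPM in T1 to T3, 4.99, 0.692 and 0.526 in A1 to A3 and 0.354, 0.494 and 2.36 in S1 to S3. Its log2 fold change was -2.43 (SE 0.96), and -0.66 without A1. The next, ENSRNOG00000031100, had -2.37, and -1.56 without A1. The highest by that filter, ENSRNOG00000047098, at 1.85, 2.02 and 4.08 CPM in T1 to T3 and 0.445, 1.06 and 0.443 in A1 to A3, had 2.02, and 1.805 without A1. Without A1, 1207 genes had an unadjusted p under 0.05, and without T2 703 did.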

How the data were processed

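RNA of the ventral striatum was sequenced from 3 pools per group, each as 4 technical replicates. The authors deposited raw read counts per Ensembl gene for 31546 genes. Before that, according to the methods and the submitters' processing notes, they demultiplexed with bcl2fastq 2.17.1.14, aligned reads to the rat genome of Ensembl with STAR, left out multiply mapped reads and counted with HTSeq 0.5.3. Gene lengths and coordinates of that build were not used here.

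Technical replicates were summed per pool. The test of Coc–Coc against Sal–Coc was edgeR's quasi-likelihood test (edgeR 4.0.16, R 4.3.3) after filterByExpr and TMM, fitted to all 9 pools together, with Benjamini-Hochberg adjustment over 15641 genes. Levels are CPM, counts per library size scaled by TMM. Alternatives used other normalizations, filters, DESeq2 1.42.0, limma-voom (limma 3.58.1), fewer pools and the pool number as a block. On simulated counts for this comparison, edgeR's test recovered 28 of 75 genes changed 1.5-fold, 42 of 66 changed 2-fold and 53 of 59 changed 3-fold, with 6 false calls among 15522 genes. The simulation used each gene's fitted spread and gave Sal–Sal and Sal–Coc equal means, whereas 16.4% of genes were called between them. In the data Dgkh, at 2.69-fold, was not called, so these rates need not hold there.

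The count tables hold no symbols. Symbols were joined where a published fold change matched the ratio of normalized group means of 1 identifier alone, which gave 1475 of 1539 symbols, a step decided on after the data were seen, so that agreement with published folds is uninformative. Named genes were the joined genes of the published Coc–Coc vs. Sal–Coc list, of the genes with a symbol the 12 largest and 12 smallest log2 fold changes with non-overlapping pools, an unadjusted p under 0.05 and a mean of at least 1 CPM, and of each list up to 4 members by smallest p with non-overlapping pools and an unadjusted p under 0.05 (or, where none, the 2 with the highest mean CPM). Members and lists were chosen with earlier results of these data known. Lists without any joined gene were neurotrophins, mitochondrially encoded genes, projection neurons, excitatory neurons from outside the striatum, choroid plexus and oligodendrocytes. Single genes were tested by exact permutation of log2(CPM + 0.1). Some list members are not reported here.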

Additional observations from a re-analysis of the deposited data

How the results depend on the processing

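The count of 0 genes with an adjusted p under 0.05 became 5 with no filter on low counts, 153 with DESeq2 and 3 with technical replicate a alone, and it ranged from 0 to 1 when 1 pool was left out. The 153 calls of DESeq2 include all 27 genes of the published list, which was chosen on these pools. The genes with an unadjusted p under 0.05 ranged from 703 (without T2) to 1660 over the fits without 1 pool, against 1453. Genes with non-overlapping pools ranged from 1335 to 2440 higher and from 1299 to 2730 lower in these fits, in part because fewer pools overlap less often, and scaling by library size alone gave 768 higher against 1203. The share of genes with Sal–Sal in the middle stayed within 1.5 times its value in the alternatives run.

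When a replicate block by pool number was fitted, 0 genes had an adjusted p under 0.05 and 1342 an unadjusted one. The numbers do not pair the pools: equal numbers mark different animals, and deviations of same-numbered Coc–Coc and Sal–Coc pools correlated between -0.077 and 0.003 across genes. Of 1176 values of the 62 named genes under these alternatives, 5 changed sign, all of genes with overlapping pools: Flt1 (-0.273 to 0.00254 over the fits without 1 pool), Jund (-0.0899 to 0.298) and Pdgfrb (-0.0820 to 0.0828, and -0.0194 with library size only). List members printed beside them also changed sign without 1 pool: Hira (-0.04 to 0.12), Dnmt3a (-0.13 to 0.02), Pcdh8 (-0.23 to 0.05), Plcb2 (-0.18 to 0.07) and Vwf (-0.21 to 0.06), and Kmt2c did with technical replicate a alone. Dgkh and Rfx3 had an adjusted p under 0.05 with no filter (0.0119 and 0.0181) and with technical replicate a alone (0.0211 each). A trend with coding length was planned and not run, since no protein lengths were used here. Depth limits genes under 1 CPM, where the widest folds lie.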

Other observations

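Median GC content of the 250 bases before the start, in the RefSeq promoter windows (GRCr8), was 64.8% for the 77 higher and 61.0% for the 88 lower named genes with pools that did not overlap, an unadjusted p under 0.05 and 1 listed start. It was 59.6% for the 777 named genes with an unadjusted p of 0.05 or more and 51.2% over all 33469 windows. The interquartile ranges, 54.8% to 69.6% for the higher and 55.0% to 66.0% for the lower genes, overlapped that of the 777, 54.8% to 66.4%. No test was run on these values.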
